A study of Mus musculus with 14 samples.

Results

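Trimethylation of lysine 4 of histone H3 (H3K4me3) was followed at noncoding RNA genes that stand apart from protein-coding genes. A gene was included when a summit of the mark, on mm10 chromosomes 1 to 19, lay within 2 kb of a boundary of a RefSeq noncoding RNA gene, outside every protein-coding gene body and more than 5 kb from any protein-coding gene boundary. The strongest such summit by the mean of 13 libraries stood for the gene. Either end of a gene counted as a boundary, so a summit need not lie at the promoter. Of 16359 noncoding RNA genes on these chromosomes, 4423 had a summit within 2 kb and 1378 met the whole rule. They used 1163 of the 153207 summits in the deposited table, since 380 genes shared a summit with a neighbour.

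Prefrontal cortex was taken from male C57BL/6J mice, adults 10 to 12 weeks old. The CSDS30 group (5 libraries) had 30 days of chronic social defeat, a daily attack by an unfamiliar CD1 mouse with housing beside an aggressor in between, and the CSDS10 group (5 libraries) had 10 days of the same treatment. Control mice (3 libraries) lived in divided cages and met no aggressor. Defeated mice were killed 24 hours after the last session, and 1 input library was not analysed here. The labels do not say whether each library came from a separate animal or from pooled tissue, so a p-value here reflects only how libraries of a group vary. All carry the same batch label.

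H3K4me3 marks nucleosomes around the start sites of genes transcribed by RNA polymerase II, and it is strongest at promoters rich in CpG dinucleotides. Long noncoding RNAs, most microRNA precursors and the host transcripts of small nucleolar RNAs (snoRNAs) are made by that polymerase. Transfer RNAs (tRNAs), 5S ribosomal RNA and Y RNAs are made by RNA polymerase III, and active tRNA genes often lie in chromatin that carries the mark. In cortex, noncoding transcripts include nuclear scaffolds such as Malat1 and Neat1, and microRNAs of neuronal differentiation such as miR-9 and miR-137.

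By RefSeq type, the 1378 genes were 1095 long noncoding RNA genes, 155 tRNA genes, 45 microRNA genes, 29 small nuclear RNA (snRNA) genes, 22 ribosomal RNA (rRNA) genes and 18 snoRNA genes, with 14 genes of other types. Gene models known only by a number made up 1082 of them, and 296 had a name. The rule took 39.6% of the 391 tRNA genes on these chromosomes but 8.82% of the 12408 long noncoding RNA genes. The summit lay 527.5 bp from the gene's boundary in the median, and the nearest protein-coding gene was 27.9 kb away in the median.

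Promoters of 6 genes are shown because they carry the range of sequence and of signal described below. They are RefSeq promoter sequences (GRCm38.p6, the same primary assembly as mm10), from 250 bases before to 50 bases after the start, written 5′ to 3′ on the gene's strand with each CpG in capitals. The genes are 1500011B03Rik, with the highest level of all, and Snhg20 and Oip5os1, the highest of the snoRNA host and neural lists. Gm30684 and Gm29183 are each among the smallest p-values of a comparison. Meg3 was the 1 gene of a list of 12 imprinted transcripts that met the rule.
1500011B03Rik, chr5:114813927-114814226, minus strand: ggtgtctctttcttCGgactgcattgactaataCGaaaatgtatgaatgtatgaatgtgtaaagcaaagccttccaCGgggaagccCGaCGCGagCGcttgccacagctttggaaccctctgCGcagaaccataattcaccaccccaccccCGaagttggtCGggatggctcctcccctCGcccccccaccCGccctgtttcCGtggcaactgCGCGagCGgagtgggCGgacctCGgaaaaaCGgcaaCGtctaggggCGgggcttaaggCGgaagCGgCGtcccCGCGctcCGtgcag
Snhg20, chr11:117076533-117076832, plus strand: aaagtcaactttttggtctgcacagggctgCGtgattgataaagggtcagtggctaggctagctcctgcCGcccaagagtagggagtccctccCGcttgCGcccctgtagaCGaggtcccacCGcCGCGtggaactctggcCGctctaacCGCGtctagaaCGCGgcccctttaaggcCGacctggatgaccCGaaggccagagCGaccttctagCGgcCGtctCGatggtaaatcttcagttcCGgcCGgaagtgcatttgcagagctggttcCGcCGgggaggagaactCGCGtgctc
Oip5os1, chr2:119594046-119594345, plus strand: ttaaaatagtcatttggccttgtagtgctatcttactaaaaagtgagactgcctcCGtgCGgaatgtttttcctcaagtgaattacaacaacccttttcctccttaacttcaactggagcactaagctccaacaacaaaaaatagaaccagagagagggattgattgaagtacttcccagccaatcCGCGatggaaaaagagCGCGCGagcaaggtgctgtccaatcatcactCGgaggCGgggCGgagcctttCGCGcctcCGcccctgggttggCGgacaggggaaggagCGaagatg
Gm30684, chr7:38061311-38061610, minus strand: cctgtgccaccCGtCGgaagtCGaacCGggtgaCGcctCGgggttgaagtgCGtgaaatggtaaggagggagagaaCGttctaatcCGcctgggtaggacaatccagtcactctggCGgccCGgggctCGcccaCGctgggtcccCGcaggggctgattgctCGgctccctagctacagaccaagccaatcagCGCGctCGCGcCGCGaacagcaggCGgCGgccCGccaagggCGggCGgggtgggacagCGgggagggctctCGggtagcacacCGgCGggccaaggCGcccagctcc
Meg3, chr12:109540746-109541045, plus strand: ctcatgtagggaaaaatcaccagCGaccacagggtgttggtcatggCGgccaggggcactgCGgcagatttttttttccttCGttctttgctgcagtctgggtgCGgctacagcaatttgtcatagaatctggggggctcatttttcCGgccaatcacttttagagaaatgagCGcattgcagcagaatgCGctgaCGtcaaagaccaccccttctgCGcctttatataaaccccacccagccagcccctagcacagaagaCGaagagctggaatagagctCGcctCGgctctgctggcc
Gm29183, chr1:73827032-73827331, minus strand: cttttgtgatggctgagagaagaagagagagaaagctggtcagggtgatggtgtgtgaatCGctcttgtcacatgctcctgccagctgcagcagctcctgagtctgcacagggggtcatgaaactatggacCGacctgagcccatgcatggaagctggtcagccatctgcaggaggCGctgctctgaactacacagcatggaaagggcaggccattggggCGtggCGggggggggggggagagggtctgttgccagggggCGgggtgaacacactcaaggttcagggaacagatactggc
The 300 bases hold 27 CpGs at 1500011B03Rik, 25 at Snhg20, 15 at Oip5os1, 31 at Gm30684, 13 at Meg3 and 6 at Gm29183.

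Mature microRNAs of member genes, also from RefSeq, are shown with the seed, bases 2 to 8, in capitals, because the seed sets which messages a microRNA can pair with. The first 3 pairs come from different genes with a shared seed, and the others are single members described below. RefSeq mature sequences were matched for 38 of the 45 microRNA genes.
mmu-miR-193a-3p: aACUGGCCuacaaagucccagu
mmu-miR-193b-3p: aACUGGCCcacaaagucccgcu
mmu-miR-17-5p: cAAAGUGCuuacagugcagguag
mmu-miR-20a-5p: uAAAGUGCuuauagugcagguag
mmu-miR-19a-3p: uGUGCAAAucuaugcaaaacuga
mmu-miR-19b-3p: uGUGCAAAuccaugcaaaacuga
mmu-miR-9-5p: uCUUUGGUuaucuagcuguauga
mmu-let-7i-5p: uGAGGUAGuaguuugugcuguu
mmu-miR-760-3p: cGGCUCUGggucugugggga
mmu-miR-99a-5p: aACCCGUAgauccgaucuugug
The sequence of miR-9-5p is encoded by Mir9-1, Mir9-2 and Mir9-3, and all 3 loci met the rule.

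The mark was weaker at these summits than at those of coding genes. Values are reads at the summit divided by 1 size factor per library, called normalised reads here. The mean over 13 libraries had a median of 34.0 over the 1163 noncoding summits, against 96.3 over the strongest summits of protein-coding genes and 83.5 over noncoding genes inside or near coding genes. Means of at least 100 were reached by 73 noncoding summits (6.28%), against 45.4% of the coding ones and 7.05% of all summits of chromosomes 1 to 19, whose median was 41.8. The types differed among themselves. tRNA genes had a median of 63.4, Y RNA genes 72.5, microRNA genes 50.9, snoRNA genes 50.8, long noncoding RNA genes 32.8, snRNA genes 32.0 and rRNA genes 0.793. The 6 snoRNA host genes had a median of 85.3, the 13 neural long noncoding RNAs 60.5, the 10 microRNA host genes 59.4 and the unnamed models 31.7. Meg3, the 1 member from the imprinted list, lay below that at 27.8. These are descriptions of summits that had been called as peaks, so unmarked genes do not enter them.

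**Figure D1:**
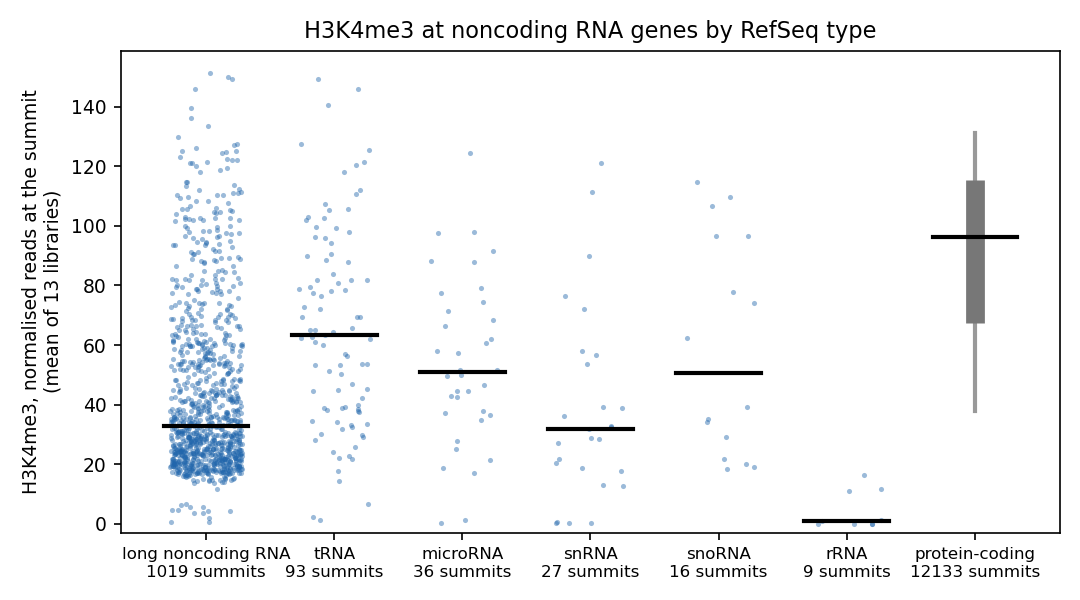
Mean normalised reads over 13 libraries at the strongest summit, by RefSeq type, with 1 point per summit and a black bar at the median. For protein-coding genes the thick bar spans the quartiles and the thin line the outer deciles of the summits. tRNA summits have a median of 63.4 and long noncoding RNA summits 32.8, both under the coding median of 96.3.

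Summits far from coding genes had somewhat lower levels. The median was 39.2 for the 227 summits 5 to 10 kb from a coding gene, 32.0 for the 339 at 20 to 50 kb and 29.1 for the 95 beyond 200 kb. At the edge of the rule, the 10 members nearest to a coding gene, 5.002 to 5.052 kb away, had levels of 17.3 to 108 with a median of 36.3. The 10 noncoding genes just outside it, 4.426 to 4.956 kb away, had levels of 27.0 to 66.7 with a median of 48.2. At the other limit, the 10 genes with a summit 1975 to 1997 bp from their boundary had a median of 39.3, and the 10 next genes, at 2010 to 2094 bp, a median of 18.6.

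Start sites could be placed for 823 long noncoding RNA genes that have a promoter entry. The strongest summit lay within 500 bp of the nearest listed start for 383 of them (46.5%), against 74.4% of 10987 coding genes. It lay downstream of the start in 258 of those 383 and upstream in 125. The downstream ones had a median level of 45.7 and the upstream ones 33.7. For 190 genes (23.1%) the summit was over 2 kb from any listed start, against 9.84% of coding genes, and their median level was 27.4. Such summits lie near the annotated end of the gene or near a start that the table does not list. 4933407E24Rik, an unnamed long noncoding RNA, is an example, with its summit 6543 bp downstream of the listed start.

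**Figure D2:**
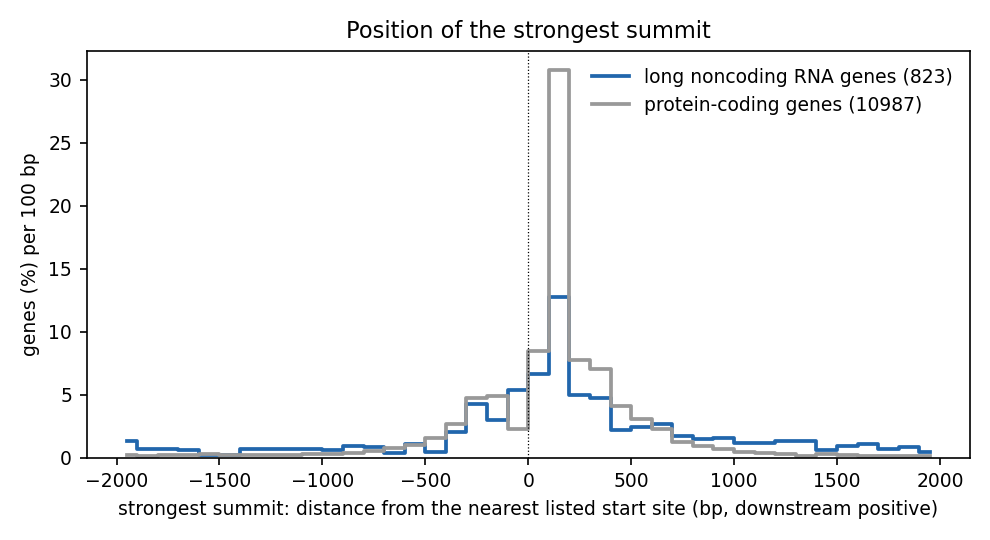
Share of genes per 100 bp by the distance of the strongest summit from the nearest listed start site, downstream positive, for 823 long noncoding RNA genes and 10987 protein-coding genes. Both have their highest bin just downstream of the start, and 46.5% of the noncoding and 74.4% of the coding genes lie within 500 bp.

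Promoter CpG content and the mark went together. For 496 long noncoding RNA genes with a summit within 1 kb of the start, the observed over expected CpG ratio of the promoter was at least 0.6 in 146 (29.4%), against 78.2% of coding promoters. The median level was 70.4 normalised reads in these 146, 34.0 in the 217 with a ratio of 0.3 to 0.6 and 29.0 in the 133 under 0.3. Spearman's rho between ratio and level was 0.42 over the 496 genes, which share their libraries, and it is given as a description. In coding genes it was 0.25 over 9403 promoters. For the GC share of the promoter in place of the CpG ratio, rho was 0.39 in the noncoding and 0.002 in the coding genes. The ratio was 0.98 at 1500011B03Rik, 0.90 at Snhg20, 0.86 at Gm30684, 0.80 at Oip5os1, 0.60 at Meg3 and 0.25 at Gm29183, with mean levels of 151, 124, 120.1, 122, 27.8 and 23.4 in the same order. The order was not kept throughout: Mir22hg had a ratio of 0.54 and a mean level of 87.8. Malat1, whose summit lies 1522 bp from its start, is not among the 496 genes. It had a ratio of 0.60 and a mean level of 90.5.

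**Figure D3:**
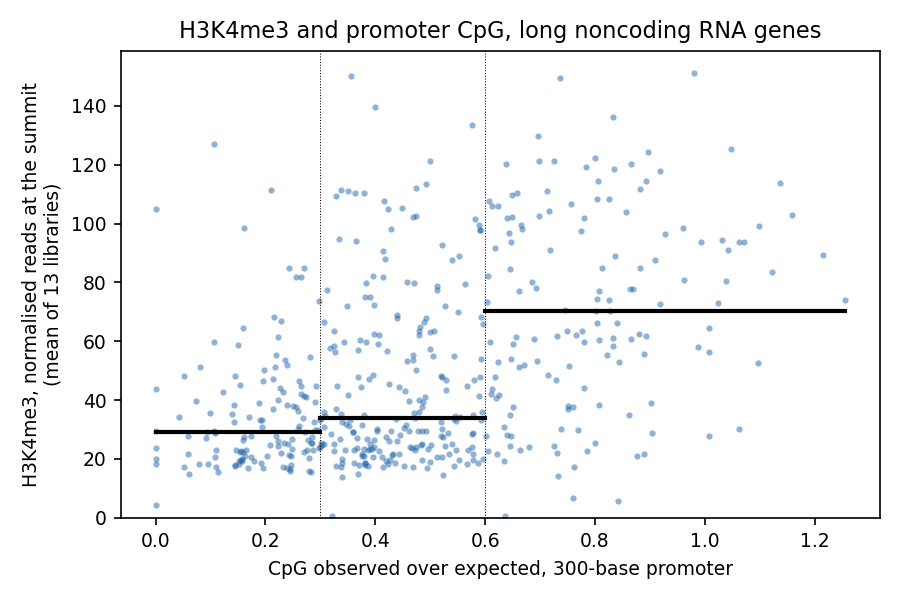
Mean normalised reads over 13 libraries against the CpG observed over expected ratio of the promoter, 1 point for each of 496 long noncoding RNA genes. Black bars mark the medians of 29.0, 34.0 and 70.4 in the 3 ratio classes, and many promoters of every class lie under 40 normalised reads.

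Short motifs were counted on both strands of the same 496 promoters. The GC box GGGCGG, which Sp1-type factors bind, was found in 34.7%, against 69.4% of coding promoters and 35.9% of all 27025 promoters in the table. It was found in 49.2% of noncoding genes above the median level and in 20.2% of those below; its letters hold a CpG, so it overlaps with the ratio above. The TATA box TATAAA was found in 14.1%, against 6.18% of coding promoters and 14.2% of all promoters. The core CRE TGACGT was found in 7.06%, the E-box CACGTG in 11.1%, the NF-Y box CCAAT in 34.9% and the ETS site CCGGAAG in 7.06%. In the same order, coding promoters had 12.1%, 10.5%, 38.1% and 18.6%, and all promoters 7.64%, 7.24%, 37.9% and 9.12%.

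The highest level was at 1500011B03Rik, which had 147.2, 137.5, 133.6, 134.3 and 171.0 normalised reads in CSDS30, 169.0, 179.3, 130.8, 152.5 and 142.3 in CSDS10 and 137.0, 174.6 and 157.0 in control. The groups overlapped. Next were 3110053B16Rik (mean of 151), Gm16897 (150.1) and a chromosome 7 summit (149) shared by Gm39054 and the proline tRNA genes n-TPagg7 and n-TPtgg8. At the low end, a summit in the 5S rRNA array of chromosome 8, assigned to n-R5s101, n-R5s102 and n-R5s103, had 0 reads in all 13 libraries. Copies of 5S rRNA and of many tRNAs are nearly identical, and how reads that match several places were treated is not given in the sources used here, so their levels are uncertain.

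Among the nuclear RNAs, Malat1, a long RNA of nuclear speckles, had 69.7, 96.8, 97.8, 102 and 100.7 normalised reads in CSDS30, 73.8, 69.2, 80.0, 99.9 and 92.7 in CSDS10 and 94.3, 102 and 98.6 in control. The 3 groups overlapped, with CSDS30 replicate 1 and CSDS10 replicate 2 the lowest. Neat1, the scaffold of paraspeckles, averaged 49.9 ± 14.5 in CSDS30, 57.6 ± 20.9 in CSDS10 (SD, n = 5 each) and 52.9 ± 21.7 in control (SD, n = 3). Norad, a largely cytoplasmic RNA that binds Pumilio proteins, averaged 24.9 ± 7.57 in CSDS30, 15.3 ± 7.68 in CSDS10 and 24.4 ± 8.90 in control. Its log2 fold change was 0.76 ± 0.34 (SE) in CSDS30 against CSDS10, a difference that did not pass (limma, adjusted p = 0.963).

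The neural list held 23 long noncoding RNAs known from brain or neural development, and 13 met the rule. Highest were Oip5os1, also called cyrano, at a mean of 122, and Lncpint at 121. Oip5os1, which directs the decay of miR-7, averaged 112 ± 20.4 in CSDS30, 133 ± 25.8 in CSDS10 (SD, n = 5 each) and 121 ± 5.75 in control (SD, n = 3). Pantr2 (82.2), Sox1ot (75.8), C130071C03Rik (67.9), 2610307P16Rik (61.4), Miat (60.5) and Tunar (58.5) formed the middle. Sox2ot, which overlaps the transcription factor gene Sox2, was among the lowest at 26.2. It averaged 22.0 ± 3.35 in CSDS30, 32.0 ± 2.35 in CSDS10 and 23.8 ± 6.34 in control, with a log2 fold change of -0.53 in CSDS30 against CSDS10 that did not pass (limma, adjusted p = 0.963). In that comparison 6 of the 13 were higher and 7 lower, and none passed.

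Of 12 listed imprinted noncoding transcripts, Meg3 alone met the rule, while 5 had no summit within 2 kb. Another 5 had summits only inside or near coding genes, and 1 is not a noncoding gene of these chromosomes in RefSeq. The member Mir1906-1, at a mean of 21.3, lies within Meg3 and was not on the list. Meg3, a maternally expressed RNA, had 26.6, 21.9, 23.1, 18.8 and 38.4 normalised reads in CSDS30, 24.6, 55.1, 18.8, 28.8 and 26.0 in CSDS10 and 16.8, 34.7 and 27.5 in control. The groups overlapped, and CSDS10 replicate 2 was the highest library. Its promoter has 13 CpGs, yet its level was under the median of all noncoding members.

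The snoRNA host genes, whose introns carry snoRNAs that guide the modification of rRNA, were the most strongly marked named group. Snhg20, which shares its summit with Mir6516, averaged 113 ± 11.5 in CSDS30, 130.0 ± 12.0 in CSDS10 and 134 ± 16.3 in control. Snhg17 had a mean of 115, Snhg15 96.5, Snhg5 74.1, Snhg4 57.2 and Snhg11 44.2. All 6 had lower means in CSDS30 than in CSDS10, with a median log2 fold change of -0.15, and none passed. Of 12102 tested summits of coding genes, 8188 were also lower in CSDS30, with a median of -0.08. Without replicate 2 of both groups, 5 of the 6 were lower.

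Members of the microRNA group reached 124 normalised reads at Mir6516, 98.0 at Mir760, 97.7 at Mir193b and 91.7 at Mir193a. Mirlet7i, a let-7 gene, averaged 76.2 ± 25.5 in CSDS30, 94.0 ± 16.5 in CSDS10 and 98.0 ± 11.6 in control. Mir22 and its host Mir22hg share a summit with a mean of 87.8. The miR-9 loci, which act in neural progenitors, had means of 79.2 at Mir9-3, 68.5 at Mir9-1 and 46.7 at Mir9-2, and Mir137 had 50.1. Mir9-3 stands in that order above Mir9-1 by less than its own spread, with 72.4 ± 19.2 in CSDS30, 84.7 ± 29.6 in CSDS10 and 81.3 ± 31.6 in control.

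Small structured RNAs included Rny1 and Rny3, the Y RNAs bound by the Ro60 protein, and Terc, the RNA template of telomerase. Rny1 averaged 92.5 ± 10.1 in CSDS30, 93.8 ± 18.2 in CSDS10 and 88.8 ± 3.21 in control. Terc averaged 60.5 ± 9.40 in CSDS30, 63.2 ± 11.2 in CSDS10 and 66.9 ± 16.6 in control. Rmrp, Rpph1, Rn7sk, Rn7s1, Rn7s2, Vaultrc5 and Bc1 had summits only inside or near coding genes and are not members.

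The 155 tRNA genes used 93 summits, covered all 20 amino acids and 43 anticodons, and 67 of the genes lie on chromosome 13. A summit on chromosome 19 with a mean of 121 served 6 tRNA genes at once (n-TFgaa2, n-TKctt30, n-TLtaa4, n-TRtct1, n-TVtac1 and n-TVtac2). The tRNA and rRNA groupings were made after the values were seen. Over tRNA summits the library median averaged 62.4 ± 7.84 in CSDS30, 65.6 ± 6.13 in CSDS10 (SD, n = 5 each) and 61.3 ± 4.41 in control (SD, n = 3).

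Between libraries, the median over all 1163 summits was 36.1 ± 3.03 normalised reads in CSDS30, 32.9 ± 2.24 in CSDS10 (SD, n = 5 each) and 34.1 ± 0.992 in control (SD, n = 3). Replicate 2 of both defeat groups stood apart. CSDS30 replicate 2 had the highest noncoding median, 40.6, and the lowest coding median, 81.2. CSDS10 replicate 2 had the lowest noncoding median, 29.6, and the highest coding median, 107. The coding median was 2.0 times the noncoding one in CSDS30 replicate 2 and 3.62 times in CSDS10 replicate 2. Without both, the noncoding medians averaged 35.0 ± 1.96 in CSDS30 and 33.7 ± 1.55 in CSDS10 (SD, n = 4 each). Between 4512817 and 10887911 reads fell on all summits per library. The tissue label was checked at marker genes: summits were present at 5 of 5 excitatory neuron markers, 3 of 5 each of the inhibitory, oligodendrocyte and astrocyte markers, 2 of 5 microglia markers, 4 of 5 endothelial markers and 1 of 5 genes of other organs, Apoa1. Excitatory markers summed to 164 to 272 in CSDS30, 172 to 267 in CSDS10 and 193 to 218 in control. Apoa1 averaged 80.8 in CSDS30, 67.6 in CSDS10 and 67.2 in control. In mean, that was above the microglia sum (46.5, 47.0 and 35.4) and near the inhibitory sum (79.2, 70.5 and 74.2). It was under the sums of the other brain markers. In bulk tissue, fewer cells of a type and less of the mark per cell cannot be told apart.

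**Figure D4:**
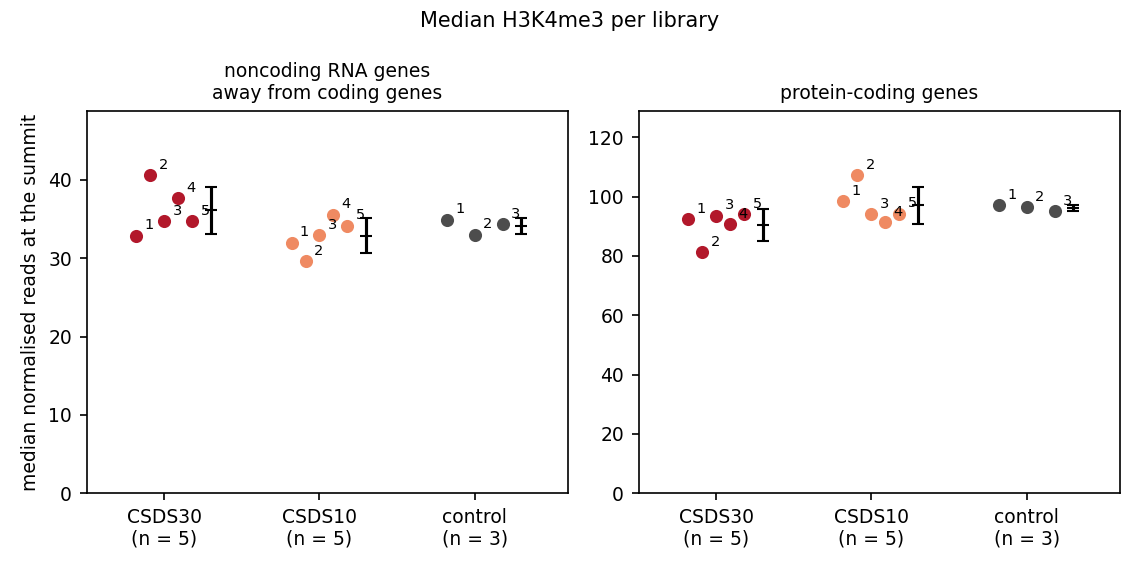
Median normalised reads per library over the 1163 noncoding summits (left) and over protein-coding genes (right), with the replicate number beside each point and the mean ± SD of each group as a black bar. Replicate 2 of CSDS30 is the highest library on the left and the lowest on the right, and replicate 2 of CSDS10 the reverse.

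No noncoding summit differed between groups past the threshold. The test was limma on log2(value + 1) over 152270 summits, with Benjamini-Hochberg adjustment, and it covered 1138 noncoding summits with 1345 genes. The other 25 summits, with 33 genes and 14 of the rRNA genes among them, were too low to test. The number called was 0 of 1138 noncoding summits in each of the 3 comparisons, beside 0.0% of all summits, and edgeR and DESeq2 on the recovered reads also called 0. Precision was limited. The bounds of the 95% interval of a noncoding log2 fold change lay, in the median, 0.504 to either side in CSDS30 against CSDS10 and 0.582 in both comparisons with control, against 0.301 and 0.347 at coding genes. It lay within a 2-fold change either way for 87.7%, 80.4% and 77.9% of noncoding summits in CSDS30 against CSDS10, CSDS30 against control and CSDS10 against control. The wider intervals went with the lower level: between 50 and 100 normalised reads, the median residual SD was 0.267 on the log2 scale at noncoding and 0.261 at coding summits.

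The comparison of CSDS30 with CSDS10 sets longer against shorter defeat. At an unadjusted p under 0.05 there were 54 of 1138 noncoding summits (4.75%), beside 5.12% of all summits. Of these, 41 were higher (3.6%) and 13 lower (1.14%), beside 2.01% and 3.11% of all summits. The median log2 fold change was 0.07 over noncoding summits, with 695 higher and 443 lower, -0.08 over coding genes and -0.00 over all summits. The 2 libraries that stood apart were picked by such medians, so leaving them out was likely to shrink that offset in any case. Without them the noncoding median was 0.01, with 583 higher and 555 lower, and the coding median -0.03, and still no summit was called.

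Smallest p-values among the higher members belonged to Gm30524 and Gm29183, long noncoding RNA models far from coding genes. The Gm30524 summit lay 591 bp from the gene's boundary but at -5761 bp from the nearest listed start, upstream of it. Gm30524, with its summit at chr6:140956224, had 15.7, 31.2, 43.1, 31.7 and 19.6 normalised reads in CSDS30, 13.1, 5.65, 12.2, 15.2 and 13.8 in CSDS10 and 30.05, 13.9 and 24.1 in control. Every CSDS30 library was above every CSDS10 library, while the controls reached into both. Its log2 fold change was 1.15 ± 0.33 (SE; limma, adjusted p = 0.963). Gm29183, at chr1:73826332, had 28.2, 37.5, 27.3, 30.8 and 28.3 in CSDS30 and 13.9, 18.4, 23.5, 10.2 and 17.9 in CSDS10. The log2 fold change was 0.86 ± 0.27 (SE; limma, adjusted p = 0.963), and the groups did not overlap. The 3 controls, at 22.4, 25.2 and 20.6, were all below the CSDS30 libraries and reached into those of CSDS10. Its promoter has the lowest CpG ratio of those printed. Groups that do not overlap were found at 6 higher and 3 lower noncoding summits (0.527% and 0.264%), beside 0.334% and 0.387% of all summits.

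On the lower side, tRNA genes appeared. n-TIaat17, an isoleucine tRNA gene at chr17:83861944-83862036, had 91.6, 70.3, 84.1, 85.6 and 87.0 normalised reads in CSDS30, 96.8, 121, 115, 113 and 99.2 in CSDS10 and 122, 100.8 and 104 in control. Every CSDS30 library was below every library of both other groups. The log2 fold change was -0.38 ± 0.13 (SE) against CSDS10 and -0.38 ± 0.15 (SE) against control, and neither passed (limma, adjusted p = 0.963 and 1.000). A summit shared by n-TDgtc4, n-TGtcc2 and n-TLcag3 averaged 66.2 ± 13 in CSDS30 and 91.1 ± 14.7 in CSDS10. Of 91 tested tRNA summits, 34 were higher and 57 lower, beside 3914 and 8188 of 12102 coding summits. Of all summits, 49.9% were higher. Without the 2 libraries the tRNA numbers were 29 and 62, beside 5259 and 6843 coding summits. Gm8273 (-0.47) and 4933407E24Rik (-0.52) were the other members on this side. Without the 2 libraries, the log2 fold change was -0.27 at the summit of n-TDgtc4, against -0.46 with them, and -0.25 at Gm8273.

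CSDS30 against control bears on the longer defeat. At an unadjusted p under 0.05 there were 26 noncoding summits (2.28%), beside 3.41% of all summits. Of these, 16 were higher (1.41%) and 10 lower (0.879%), beside 1.44% and 1.97% of all summits. The median log2 fold change was 0.05, with 658 higher and 480 lower, against -0.07 over coding genes. Without the 2 libraries it was 0.02, with 606 higher and 532 lower. Of 91 tRNA summits, 55 were higher and 36 lower, beside 4112 and 7990 of 12102 coding summits. Of all summits, 50.8% were higher. Without the 2 libraries the tRNA numbers were again 55 and 36, beside 4774 and 7328 coding summits. Gm23143, an snRNA gene, had 39.2, 49.98, 53.6, 60.7 and 26.8 normalised reads in CSDS30 and 30.05, 23.5 and 13.8 in control, with CSDS10 between 28.2 and 38.6. In CSDS30, 1 library lay below the highest control. The log2 fold change was 1.02 ± 0.28 (SE; limma, adjusted p = 1.000). Gm17382, a long noncoding RNA model, averaged 77.3 ± 7.25 in CSDS30 and 51.9 ± 10.3 in control, with no overlap.

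Among lower members, the summit shared by Mir760 and the arginine tRNA gene n-TRtct2 had 90.05, 64.0, 88.3, 74.4 and 92.0 normalised reads in CSDS30 and 108, 126 and 132 in control. The groups did not overlap, and CSDS10, with 96.0, 126, 78.1, 86.4 and 114, spanned both. The log2 fold change was -0.58 ± 0.17 (SE; limma, adjusted p = 1.000). The CpG-rich summit shared by Gm30684 and Gm30771 averaged 107 ± 14.7 in CSDS30 and 138 ± 9.06 in control, with no overlap and a log2 fold change of -0.38. 2810429I04Rik averaged 72.3 ± 8.69 in CSDS30 and 94.9 ± 2.47 in control. Groups that do not overlap were found at 15 higher and 18 lower summits (1.32% and 1.58%), beside 1.23% and 1.74% of all summits.

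CSDS10 against control bears on the shorter defeat. It shares its controls with the comparison above and its defeated libraries with the first. At an unadjusted p under 0.05 there were 36 noncoding summits (3.16%), beside 3.21% of all summits. Of these, 19 were higher (1.67%) and 17 lower (1.49%), beside 1.99% and 1.22% of all summits. The median log2 fold change was -0.02, with 529 higher and 609 lower, and 0.02, with 602 higher and 536 lower, without the 2 libraries, so its sign was not stable. Of 91 tRNA summits, 62 were higher and 29 lower, beside 6362 and 5740 of 12102 coding summits, and none passed. Of all summits, 50.3% were higher. Without the 2 libraries the tRNA numbers were 63 and 28, beside 5527 and 6575 coding summits.

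Mir99a lies in a chromosome 16 locus far from coding genes, with the nearest, Usp25, 480 kb away. Its summit had 28.2, 20.3, 22.1, 12.0 and 13.8 normalised reads in CSDS30, 23.0, 21.2, 18.8, 18.6 and 17.1 in CSDS10 and 13.3, 6.95 and 5.73 in control. All CSDS10 libraries were above all controls, and 1 CSDS30 library was below the highest control. The log2 fold change was 1.17 ± 0.37 (SE) in CSDS10 and 1.09 ± 0.37 (SE) in CSDS30, each against the same controls (limma, adjusted p = 1.000 for both). In the same locus, 9430053O09Rik averaged 54.8 ± 9.01 in CSDS30, 60.0 ± 11.5 in CSDS10 and 39.7 ± 4.42 in control, with a log2 fold change of 0.57 in CSDS10 against control. Mir99ahg, the host transcript of the locus, and Mir125b-2, were chosen here after their values were seen. They had log2 fold changes of -0.05 and 0.25 in CSDS10 against control, and Mir99ahg averaged 63.4 ± 12.2 in CSDS30, 57.9 ± 9.96 in CSDS10 and 59.3 ± 4.73 in control. Further members nearby, likewise named after their values were seen, went both ways in CSDS10 against control. The log2 fold change was 0.34 at Gm31258, 0.39 at Gm31495, -0.06 at the summit of Gm31613 and Gm41477, and -0.36 at Gm25916.

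Lower in CSDS10 was Gm16551, a long noncoding RNA model 13.3 kb from the transcription factor gene Onecut1. It had 18.9, 14.1, 15.1, 18.6 and 18.7 normalised reads in CSDS10 and 27.9, 39.1 and 32.1 in control, with no overlap, while CSDS30 ranged from 20.3 to 35.8. The log2 fold change was -0.91 ± 0.30 (SE; limma, adjusted p = 1.000). Gm30761 averaged 12.8 ± 4.90 in CSDS10 and 26.4 ± 3.18 in control, and Gm34978 45.7 ± 14.3 and 71.8 ± 10.4, both with no overlap. Groups that do not overlap were found at 18 higher and 23 lower summits (1.58% and 2.02%), beside 1.59% and 1.4% of all summits.

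**Figure D5:**
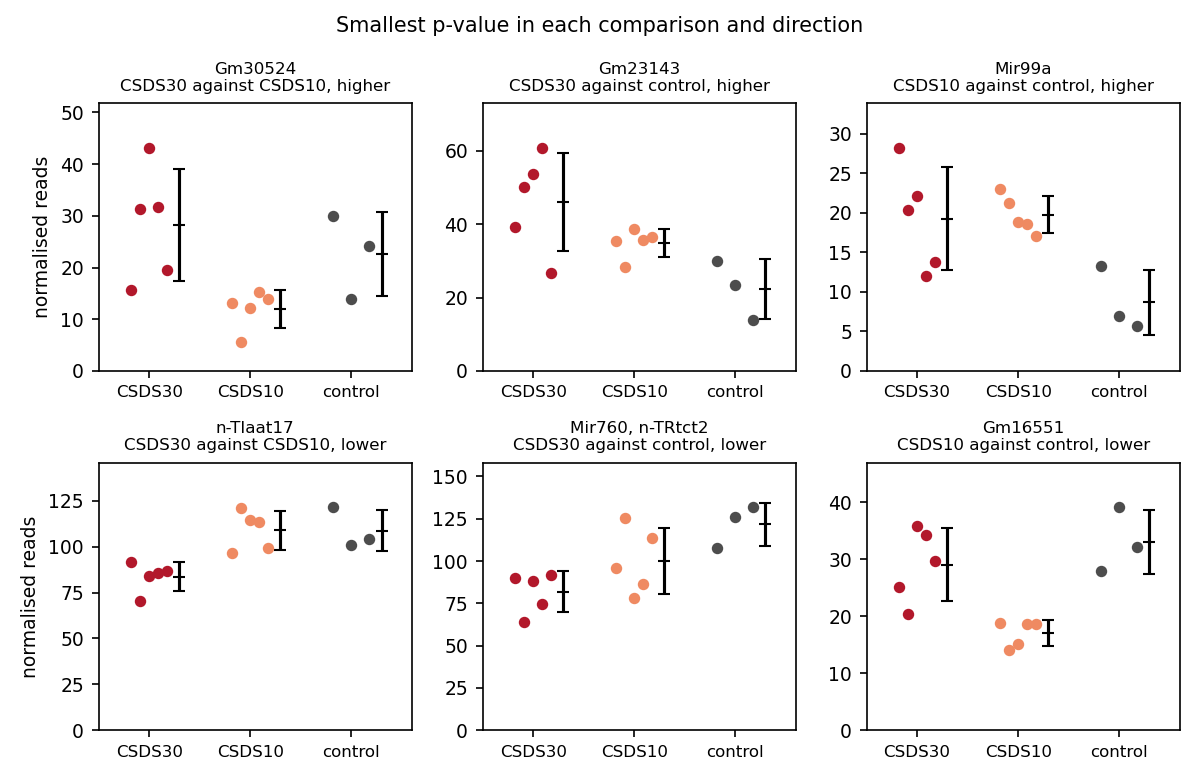
Normalised reads in each library at the noncoding member with the smallest p-value in each comparison (columns) and direction (rows), with the mean ± SD of each group as a black bar. Groups of the named comparison do not overlap at Gm30524, Mir99a, n-TIaat17, the Mir760 summit and Gm16551, they overlap at Gm23143, and none of the differences passed the threshold after adjustment.

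Variation within groups was largest, among members with a mean of at least 20, at 4732491K20Rik, Gm2109, Gm35055 and 1700063D05Rik. 4732491K20Rik had 14.9, 34.4, 40.0, 24.8 and 9.42 normalised reads in CSDS30, 32.0, 5.65, 26.4, 27.1 and 30.9 in CSDS10 and 28.6, 3.47 and 21.8 in control. The 3 groups overlap over most of their range. Gm2109 had 43.9, 21.9, 31.6, 13.7 and 11.6 in CSDS30, 36.1, 15.5, 26.4, 61.0 and 30.9 in CSDS10 and 36.3, 2.61 and 18.3 in control. Control replicate 2 was the lowest library at both, and also at 1700063D05Rik.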

How the data were processed

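Nucleosomes released with micrococcal nuclease were precipitated with an H3K4me3 antibody and read as single 100 bp reads, per the labels' protocols. DESeq2, MACS2, Bowtie2 and Trimmomatic, versions and roles not given in the sources used here, are named in the submitters' processing notes with mm10 and GRCm38.p5. The deposited signal is a normalised read number at each summit in each library. It was recovered as whole reads over a single factor for a library, since 100% of values were whole multiples of 1 step in that library (tolerance 0.001). No test used the deposited peak score. No sample column was left unmapped. Because reads carry no molecular identifiers, counting error is a lower limit on the error.

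Because the values are normalised, limma (3.58.1) with a trend in the variance was run on log2(value + 1) over 152270 summits kept by edgeR's filterByExpr (937 left out), all 13 libraries with 1 mean per group. Fold changes understate the change of low summits. edgeR (4.0.16) and DESeq2 (1.42.0) in R 4.3.3 were alternatives on the recovered reads, with other scaling, filters, pseudocounts, distances, a replicate block and libraries left out. The fit was tested on simulated data.

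Members and lists were chosen with earlier results of these data known. Named genes are up to 8 members of each list by level, the 4 smallest p-values per direction and comparison, the 5 highest and 3 lowest members and the 4 most variable. Some others, such as Sox2ot, Terc, Mir137 and Mir125b-2, were named outside this rule. Gene boundaries, promoters and microRNAs came from RefSeq tables (GRCm38.p6); a genome sequence was not used here.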

Additional observations from a re-analysis of the deposited data

Results flagged for a closer look

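Among the 5 libraries of a defeat group, 1 library lay far from the other 4 at 6 of 130 group and member combinations examined. Chance flags about 1 in 20 groups. Some members were picked for large variation or small p-values, so that rate is only a guide. Replicate 2 of CSDS10 was low at 4732491K20Rik, with 5.65 normalised reads against 26.4 to 32.0 in the others, and high at Meg3, with 55.1 against 18.8 to 28.8. Replicate 2 of CSDS30 was low at Gm16897, with 84.3 against 141 to 163, and high at the summit of Snhg15 and LOC115487884, with 123 against 85.6 to 91.5. Replicate 5 of CSDS30 was low at the summit of Snhg5, LOC115487267 and LOC115487269, with 41.3 against 76.7 to 87.3. Replicate 1 of CSDS30 was low at Malat1, with 69.7 against 96.8 to 102. The libraries with the lowest and the highest ratio of coding to noncoding medians, replicate 2 of CSDS30 and of CSDS10, hold 4 of the 6, and their part in these values was not tested.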

How the results depend on the processing

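No noncoding summit was called under any alternative run: scaling by TMM, no filter, log2(value + 4), DESeq2, edgeR, the replicate block, 1 kb or 10 kb distances, all summits of a gene, or 1 library left out (0 to 0 called in each comparison). The median log2 fold change with 1 library left out lay between 0.02 and 0.10 in CSDS30 against CSDS10, 0.02 and 0.07 in CSDS30 against control and -0.04 and 0.02 in CSDS10 against control; it was 0.02 in the first and the third without CSDS10 replicate 2, which changes the sign of the third, -0.04 in the third without CSDS10 replicate 4, and in the second 0.02 without control replicate 2 and 0.07 without CSDS30 replicate 1. Unadjusted p-values under 0.05 then numbered 36 to 75, 17 to 51 and 23 to 57 noncoding summits in the 3 comparisons. Leaving out both libraries that stood apart was added after seeing the data. The 24 named fold changes kept their sign in all 480 values, and none was called. They were picked for small p-values in these same libraries, so a kept sign adds no support. DESeq2 gave no adjusted p-value for some of them, and these were counted as uncalled. The labels do not say whether replicate numbers pair the libraries. Deviations of same-numbered libraries correlated between -0.287 and 0.368, and those of different-numbered libraries between -0.426 and 0.382, which cannot settle it. With the replicate block 0 summits were called and the medians were 0.07, 0.02 and -0.04. The median level moved by more than its spread with all summits of a gene (31.0 in CSDS30, 28.9 in CSDS10 and 29.6 in control), with the 1 kb distance (35.6 in CSDS10 and 35.5 in control) and beyond 10 kb from coding genes (32.6 in control). With 1 library left out it was 35.0 to 36.9 in CSDS30, 32.2 to 33.7 in CSDS10 and 33.7 to 34.7 in control. The median residual SD was 0.529 on the log2 scale under 20 normalised reads and 0.196 at 100 or more; the part of depth in it was not tested.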
